A study of Mus musculus with 12 samples.

Results

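The integrated stress response is described here through 10 genes, a list set by gene name with no threshold on a measured value: Atf4, Ddit3, Atf3, Asns, Trib3, Chac1, Sesn2, Psat1, Phgdh and Hspa5. All 10 were found among the 55487 gene identifiers of the count table, and all 10 passed the filter on low counts that left 16974 genes for testing. They were measured by sequencing of polyadenylated RNA in 12 libraries from subcutaneous tumours of Sq-1979, a single mouse squamous carcinoma line of the head and neck, carried by male C3H/HeN mice that were 6 weeks old when the cells were given in Matrigel. From day 20 the animals received vehicle alone, an antibody against the checkpoint receptor PD1 (anti-PD1), the kinase inhibitor regorafenib at 5 mg/kg per day, or anti-PD1 together with regorafenib (the combination), and each of the 4 groups holds 3 libraries. No genotype, transgene or other agent is named for any group, and all groups share the same cell line, host strain and tumour site. The labels do not state that the 3 libraries of a group are separate animals, so the p-values measure the spread between these libraries, which may be technical.

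In this pathway, stress kinases phosphorylate the translation factor eIF2 alpha, which slows protein synthesis in general but lets the messenger RNA of the transcription factor ATF4 be translated. ATF4 then switches on genes for amino acid synthesis and uptake, and with its partner CHOP (the product of Ddit3) genes that act in redox control and cell death. Kinase inhibitors are known to set off this response in some tumour cells, and the comparisons below ask whether tumours treated with regorafenib, anti-PD1 or both carried other levels of these transcripts. Because ATF4 itself is controlled largely at translation, the level of its transcript does not measure its protein.

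Short stretches of promoter are printed because they show which members carry, close to the start of transcription, the letters through which the pathway is known to act. RefSeq windows of 300 bases around the transcription start (GRCm38.p6) were found for all 10 genes, 11 windows in all. The core of the amino acid response element bound by ATF4 with C/EBP partners, TGATGNAA on either strand, was present in the windows of Atf3, Asns, Chac1 and Trib3, and in 3.97% of the 32851 windows of all genes. The endoplasmic reticulum stress element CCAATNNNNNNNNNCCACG on either strand was present in that of Hspa5, and in 0.119% of all windows. The 2 motifs did not overlap, and neither was found in the windows of Atf4, Ddit3, Sesn2, Psat1 and Phgdh, which says only that these letters are not in those windows. The stretches below read in the direction of the gene, with the match in capitals; those of Asns and Hspa5 are limited to 30 bases because GENCODE M21 places them in the first exon. They lie at chr1:191183376-191183503 (Atf3, minus strand), chr2:119350992-119351116 (Chac1, plus strand), chr6:7693214-7693243 (Asns, minus strand) and chr2:34772020-34772049 (Hspa5, plus strand). The match in Trib3 lies after the start of transcription and is not printed.
Atf3: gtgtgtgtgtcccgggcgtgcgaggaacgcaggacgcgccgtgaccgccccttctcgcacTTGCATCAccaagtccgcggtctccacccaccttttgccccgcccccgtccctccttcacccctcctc
Chac1: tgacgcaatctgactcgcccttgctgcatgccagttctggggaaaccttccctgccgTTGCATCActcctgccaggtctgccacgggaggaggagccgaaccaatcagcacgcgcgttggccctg
Asns: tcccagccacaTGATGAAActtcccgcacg
Hspa5: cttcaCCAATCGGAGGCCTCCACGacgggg
In Atf3 and Chac1 the match lies on the strand opposite to the gene, in Asns and Hspa5 on its own strand.

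The libraries held 22591835 to 28209036 counts, and levels are given as CPM, the counts of a gene scaled to library size with TMM factors. The squamous markers fixed for the tumour cells were present in every library, 12 of 12 markers, with a summed level of 14330.5 to 20694.5 CPM. The 8 fibroblast markers, all detected in every library, summed to 23126 to 31363.5 CPM under vehicle, 5811 to 31421 under anti-PD1, 4950.3 to 28741 under regorafenib alone and 4169.6 to 12087 under both agents. These sums come mostly from collagen genes. Over the 12 libraries Col1a1, Col1a2 and Col3a1 had 1055 to 13090 CPM, and Dcn, Lum, Pdgfra, Fap and Thy1 had 1.41 to 299 CPM. Fewer cells of a type and less RNA per cell cannot be told apart in such bulk samples. The library labelled regorafenib 1 stood apart: it was the highest of the 12 for 7 of the 10 genes, and its 6 skeletal muscle markers summed to 2.79 CPM, against 107 to 402 CPM in the other libraries, with Acta1 and Ckm at 0. The library labelled anti-PD1 1 was the lowest of the 12 for 5 of the 10 genes. How often these libraries were highest or lowest among all genes was not counted, so these counts may not be particular to the list.

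In vehicle tumours the 10 genes covered a wide range of levels. Per exonic length, in TPM over the union of exons in GENCODE M21, Hspa5 was highest at 475 ± 38.4 TPM (SD, n = 3), followed by Phgdh at 405 ± 16.0, Psat1 at 263 ± 23.6, Atf4 at 263 ± 10.96 and Asns at 146 ± 3.96. The other members were lower, with Ddit3 at 46.5 ± 1.87 TPM, Trib3 at 38.0 ± 6.13, Sesn2 at 29.5 ± 2.68, Atf3 at 16.0 ± 1.16 and Chac1 at 11.97 ± 1.14. Of neighbours in this order, Psat1 and Atf4, Ddit3 and Trib3, and Trib3 and Sesn2 overlapped between libraries, and the others did not.

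**Figure D1:**
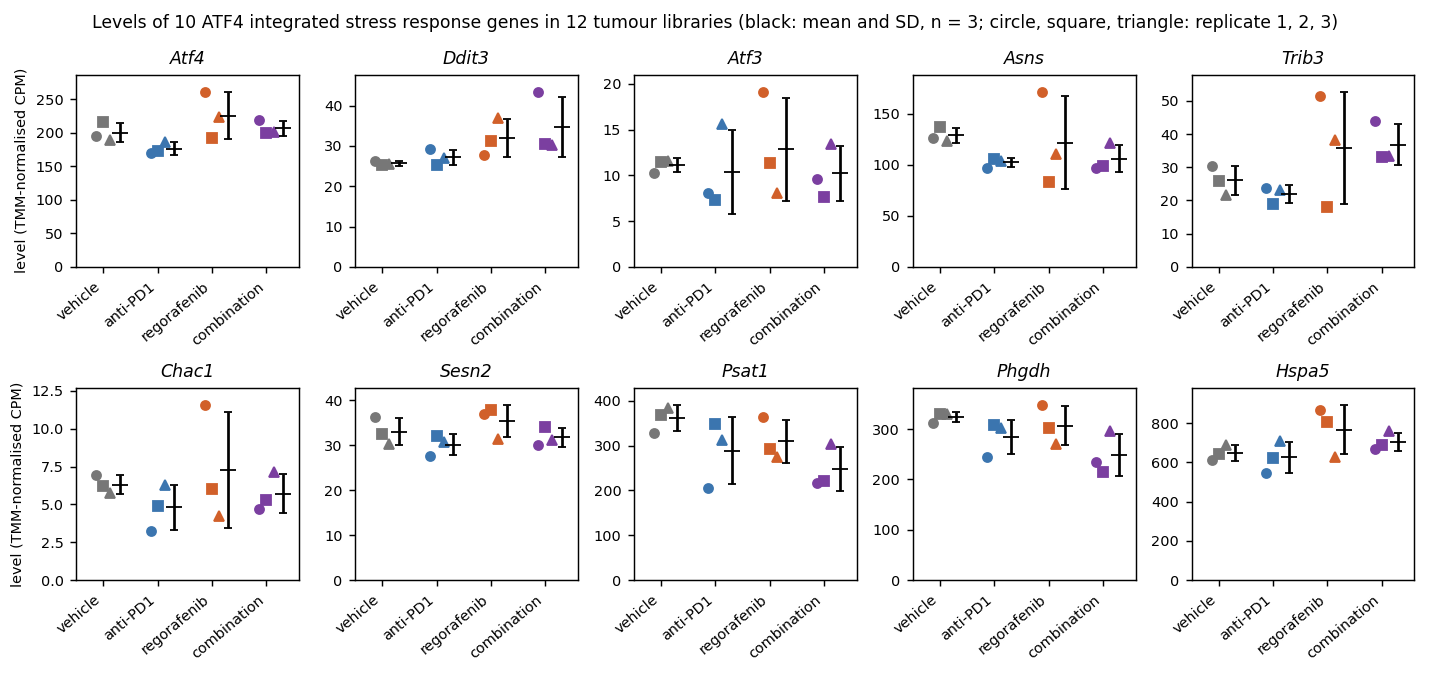
Level of each of the 10 genes in TMM-normalised CPM (vertical axes, from 0) in the 12 libraries by treatment group, with the mean and SD of the 3 libraries in black. Vehicle libraries lie close together for most genes, and regorafenib 1 (orange circle) is the highest library for 7 genes. Trib3 is above every library without regorafenib in 5 of the 6 libraries with it. The shares of all genes with these patterns were not counted.

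The average regorafenib effect asks what the drug did over both backgrounds, averaging regorafenib minus vehicle with combination minus anti-PD1, so that 6 libraries with the drug stand against 6 without it. None of the 10 genes passed at an adjusted p under 0.05 by edgeR, where 9.49% of all genes tested did (6.16% higher and 3.32% lower). Of the 10, 3 had an unadjusted p under 0.05 (28.0% of all genes). DESeq2 called 2 of the 10, but it also called more genes in all, 2808 against 1610 by edgeR. The estimates were positive for 7 of the 10 and for 50.5% of all genes, with a median log2 fold change of 0.15 for the list and 0.003 for all genes. The highest estimates were those of Trib3, Ddit3, Chac1, Hspa5 and Atf4, and the lowest those of Psat1 and Phgdh. No gene of the list separated the 6 libraries with the drug from the 6 without it, which 2.87% of all genes did upward and 1.77% downward. The 95% intervals of the fold change ended at or below 2.11-fold for all 10 genes.

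Of the transcription factors, Atf4, which encodes the central activator, had 194, 216 and 189 CPM in the vehicle libraries, 169, 173 and 187 under anti-PD1, 260, 191 and 224 under regorafenib alone and 219, 199 and 201 under both agents. The drug-treated and untreated libraries overlapped, since regorafenib 2 lay within the vehicle range, while all 3 anti-PD1 libraries were below all 3 vehicle libraries. The average regorafenib effect on Atf4 was 0.20 ± 0.08 on the log2 scale (SE; 1.15-fold, 95% interval 1.02 to 1.29; adjusted p 0.119 by edgeR). Without regorafenib 2 it was 0.26 with an adjusted p of 0.0375, the 1 of 12 fits with a library left out that passed. Without regorafenib 1 it was 0.14 with an adjusted p of 0.195, and the largest adjusted p in these fits was 0.242.

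Ddit3 encodes CHOP, the factor that carries the response toward cell death. It had 26.3, 25.3 and 25.4 CPM under vehicle, 29.2, 25.3 and 27.0 under anti-PD1, 27.7, 31.4 and 37.0 under regorafenib alone and 43.4, 30.5 and 30.2 under both agents. Every drug-treated library was above all 3 vehicle libraries, and 5 of the 6 were above every library without the drug. The exception was regorafenib 1, which was high for most other members. The shares of all genes with these patterns were not counted. Among all genes, 10.6% were separated upward from vehicle under regorafenib alone and 19.6% under both agents. The change of Ddit3 was 0.34 ± 0.10 in the average regorafenib effect (1.26-fold, interval 1.08 to 1.48), with an adjusted p of 0.0659 by edgeR and 0.0312 by DESeq2. Leaving out single libraries gave 0.24 to 0.38 with adjusted p from 0.0510 to 0.165. Ddit3 shares 68 of its 1713 exonic bases with Mars on the opposite strand, and the strand setting of the counting is not given in the sources used here; a second, 105-base identifier with the symbol Ddit3 inside the gene held 0 counts in all libraries.

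Atf3, a factor that ATF4 induces and that many other stimuli also switch on within minutes, was close to 11 CPM with vehicle (11.1 ± 0.766, SD, n = 3) and spread widely in the treated groups. It ranged from 7.29 CPM in anti-PD1 2 to 19.1 CPM in regorafenib 1. Its average regorafenib effect was 0.09 ± 0.25 with an adjusted p of 0.847, and the sign turned without regorafenib 1 (-0.11), combination 3 (-0.03) or anti-PD1 2 (-0.01). Of 14 immediate early genes, a list that shares this property with Atf3, 0 passed by edgeR in this effect (9.49% of all genes) and 3 had an unadjusted p under 0.05 (28.0% of all genes), the closest being Btg2 (-0.35 ± 0.11, adjusted p 0.0744) and Zfp36 (0.19 ± 0.07, adjusted p 0.0944). Set against the vehicle mean on the log2 scale, the list averaged 0.36, -0.43 and 0.25 in the regorafenib libraries. It averaged 0.39, 0.21 and 0.17 under both agents and 0.15, -0.15 and -0.08 under anti-PD1. Its highest library was thus combination 1, where Atf3 was at 9.59 CPM.

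Among the genes induced by ATF4 and CHOP together, Trib3 stood out in size. It encodes a pseudokinase that binds ATF4 and dampens its activity. It had 30.4, 26.0 and 21.7 CPM under vehicle, 23.7, 18.8 and 23.2 under anti-PD1, 51.4, 18.0 and 38.1 under regorafenib alone and 44.1, 32.9 and 33.5 under both agents. Here 5 of the 6 drug-treated libraries were above every untreated one and the sixth, regorafenib 2, was below every one of them. The share of all genes with 5 of the 6 above was not counted. The change was 0.61 ± 0.21 on the log2 scale (1.52-fold, interval 1.09 to 2.11), with an adjusted p of 0.0979 by edgeR and 0.0447 by DESeq2. The estimate was 0.77 with an adjusted p of 0.0145 without regorafenib 2, and 0.43 with an adjusted p of 0.177 without regorafenib 1. Regorafenib 2 also differed from the other 2 libraries of its group in its fibroblast marker sum, 28741 CPM against 10369 and 4950.3 CPM, and the part of this in the Trib3 level was not tested.

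Chac1 encodes an enzyme that degrades glutathione and Sesn2 a stress sensor that restrains mTORC1. Chac1 was the least abundant member, with 3.27 CPM in anti-PD1 1 to 11.5 CPM in regorafenib 1 and a spread of 52.6% of the mean (coefficient of variation) within the regorafenib group. Its average regorafenib effect was 0.22 ± 0.25 (adjusted p 0.603) and -0.03 without regorafenib 1. Sesn2 varied least over the 12 libraries, from 27.5 to 37.8 CPM, a ratio of 1.37. Its effect was 0.09 ± 0.07 (interval 0.953 to 1.19-fold, adjusted p 0.454).

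**Figure D2:**
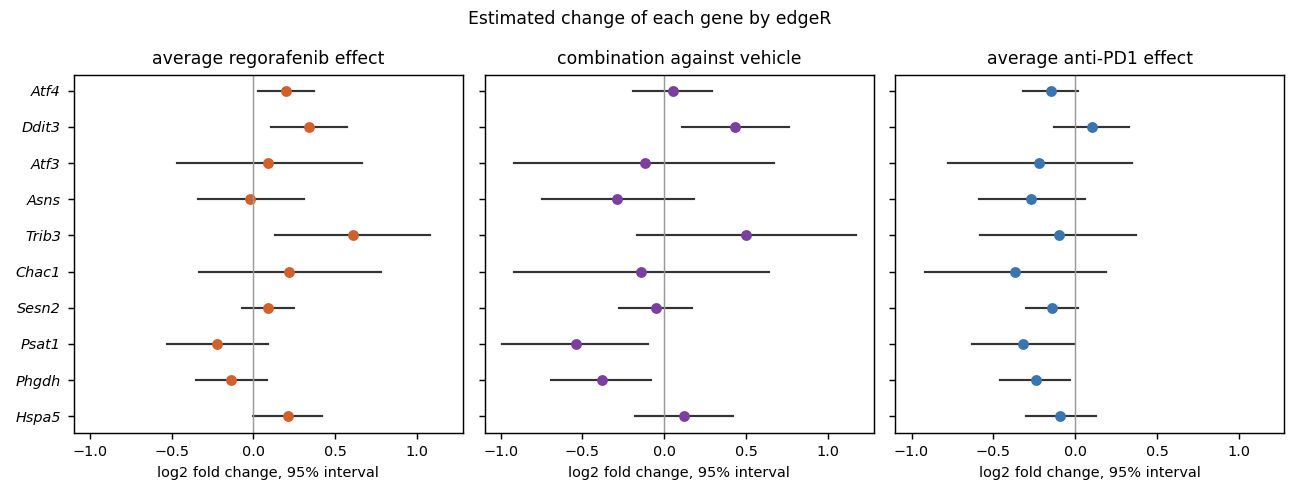
Log2 fold change of each gene by edgeR with its 95% interval (horizontal axes) in the average regorafenib effect, the combination against vehicle and the average anti-PD1 effect, from 12 libraries in 1 fit. Ddit3 and Trib3 lie to the right of 0 in the first panel at 0.34 and 0.61, and Psat1 and Phgdh to the left in the second at -0.54 and -0.38; none of the 10 is past the threshold.

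The amino acid branch of the list is made of asparagine and serine synthesis genes. In the combination against vehicle, 0 of the 10 genes passed by edgeR or DESeq2. Of all genes tested 7.34% passed by edgeR (5.03% higher and 2.32% lower), and DESeq2 called 2614 genes. Of the 10, 3 had an unadjusted p under 0.05 (27.9% of all genes). Those 3 were Ddit3, at 0.43 ± 0.15 (adjusted p 0.0912; 0.24 without combination 1), and the serine genes Psat1 and Phgdh on the negative side. All 3 combination libraries were below all 3 vehicle libraries for Asns, Psat1 and Phgdh and above them for Ddit3 and Trib3; among all genes 19.6% were separated downward and 19.6% upward.

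Psat1, which encodes the aminotransferase of the serine pathway, had 328, 369 and 385 CPM under vehicle, 206, 348 and 313 under anti-PD1, 363, 291 and 274 under regorafenib alone and 216, 222 and 304 under both agents. The 3 lowest libraries were anti-PD1 1, combination 1 and combination 2. Its change in the combination was -0.54 ± 0.20 (interval 0.505 to 0.931-fold, adjusted p 0.112).

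Phgdh, whose product catalyses the first step of serine synthesis from a glycolytic intermediate, ran almost in parallel. It had 312, 331 and 330 CPM under vehicle, 246, 307 and 302 under anti-PD1, 347, 301 and 271 under regorafenib alone and 234, 215 and 296 under both agents. The change in the combination was -0.38 ± 0.14 (interval 0.621 to 0.948-fold, adjusted p 0.108). It was past the threshold in 1 of 12 fits with a library left out, without combination 3, at -0.53 with an adjusted p of 0.0409. Without combination 2 it was -0.30, and the largest adjusted p in these fits was 0.297.

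Asns, the asparagine synthetase gene with the amino acid response element printed above, had 126, 137 and 124 CPM under vehicle, 97.1, 106 and 104 under anti-PD1, 171, 82.7 and 111 under regorafenib alone and 97.3, 98.9 and 121 under both agents. Its highest and its lowest library of all 12 were both in the regorafenib group, regorafenib 1 and regorafenib 2. The average regorafenib effect was -0.02 ± 0.15 (interval 0.788 to 1.24-fold, adjusted p 0.957), and it ran from -0.18 without regorafenib 1 to 0.09 without regorafenib 2; it was also above 0, at 0.01 or 0.02, without vehicle 2, regorafenib 3, combination 1 or combination 2. In the combination the change was -0.29 ± 0.21 (adjusted p 0.394).

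Fibroblast markers and serine genes were low together in some libraries but not in all. Anti-PD1 1, regorafenib 3, combination 1 and combination 2 had the 4 lowest fibroblast sums, 4169.6 to 5811 CPM, and the 4 lowest levels of both Psat1 and Phgdh. Regorafenib 1, with the next lowest sum of 10369 CPM, had the highest Phgdh of all 12 libraries at 347 CPM and Psat1 at 363 CPM, and regorafenib 2, with a sum of 28741 CPM, had Psat1 at 291 CPM. Ddit3 was highest in 2 of these, at 43.4 CPM in combination 1 and 37.0 in regorafenib 3. The sum is mostly collagen transcripts, and the part of the fibroblast content in these values was not tested.

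**Figure D3:**
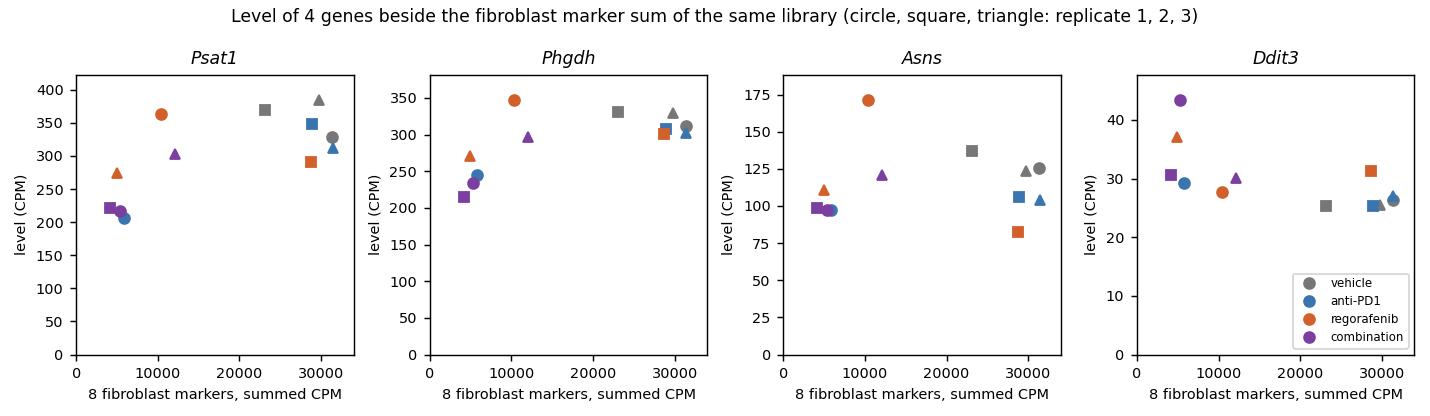
Level of Psat1, Phgdh, Asns and Ddit3 in CPM (vertical axes, from 0) against the summed CPM of 8 fibroblast markers in the same library (horizontal axes), 12 libraries coloured by group. The sum comes mostly from Col1a1, Col1a2 and Col3a1. The 4 libraries with sums of 4169.6 to 5811 CPM have the 4 lowest levels of Psat1 and Phgdh, and Ddit3 reaches 43.4 CPM among them.

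Hspa5 encodes BiP, the main chaperone of the endoplasmic reticulum lumen, which the ATF6 and XBP1 arms of the unfolded protein response control together with ATF4. It averaged 647 ± 39.97 CPM (SD, n = 3) under vehicle, 624 ± 80.8 under anti-PD1, 767 ± 123 under regorafenib alone and 704 ± 47.1 under both agents. Regorafenib 1 and 2, at 866 and 805 CPM, and combination 3, at 758 CPM, were above every untreated library, and regorafenib 3, at 629 CPM, was within the vehicle range. The 4 highest libraries, these 3 and anti-PD1 3 at 707 CPM, were also the 4 with the highest summed level of 8 leukocyte markers, 408 to 503 CPM against 154 to 265 CPM in the other 8 libraries. The part of the leukocyte markers in the Hspa5 level was not tested. The average regorafenib effect was 0.21 ± 0.10 (interval 0.998 to 1.34-fold, adjusted p 0.184).

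Of 22 other genes of the ATF6 and XBP1 arms, 3 rose and 0 fell in the average regorafenib effect (median 0.10, 16 of 22 positive), where 6.16% of all genes rose. The 4 libraries highest in leukocyte markers were also the 4 highest for the mean of this list, at 0.28 in regorafenib 2, 0.20 in anti-PD1 3, 0.19 in combination 3 and 0.15 in regorafenib 1 on the log2 scale against the vehicle mean. Of the 8 leukocyte markers 7 were tested, and 1 rose in the same effect, Itgam (0.90 ± 0.22, adjusted p 0.0328). Estimates were positive for 5 of these markers and negative for 2, with a median of 0.44. Itgam was low, at 1.73 to 7.40 CPM. The part of the leukocyte markers in the mean of the ATF6 and XBP1 list was not tested. Hyou1, a chaperone of the endoplasmic reticulum, rose 1.30-fold (0.37 ± 0.09, adjusted p 0.0295), and its group means were 159 ± 10.3 CPM (SD, n = 3) under vehicle, 157 ± 19.6 under anti-PD1, 212 ± 28.9 under regorafenib alone and 198 ± 20.3 under both agents. Hsp90b1, which encodes the chaperone GRP94, rose 1.19-fold (0.26 ± 0.06, adjusted p 0.0325). Its 6 drug-treated libraries held 540 to 600 CPM and the 6 others 444 to 521 CPM, an upward separation that 2.87% of all genes showed. Ern1, the gene of the stress sensor IRE1 alpha, rose 1.36-fold (0.44 ± 0.11, adjusted p 0.0340) and was also higher in the combination against vehicle (0.62 ± 0.16, adjusted p 0.0407). These calls did not hold in every fit with 1 library left out. In such fits the average effect ran from 0.33 to 0.43 for Hyou1, 0.23 to 0.29 for Hsp90b1 and 0.37 to 0.52 for Ern1. In the combination against vehicle Ern1 ran from 0.55 to 0.73. Calls over all genes varied in the same fits, from 460 to 2048 in the average effect and from 1 to 1517 in the combination. Hyou1 no longer passed when regorafenib 1, combination 2, combination 3, anti-PD1 2 or one of the vehicle libraries was left out, and Hsp90b1 when regorafenib 1, combination 1, combination 2, anti-PD1 2, vehicle 1 or vehicle 2 was. For Ern1 these libraries were regorafenib 3, combination 1, combination 2, anti-PD1 2, anti-PD1 3 and each vehicle library in the average effect, and combination 1, combination 2, anti-PD1 3 and each vehicle library in the combination.

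Regorafenib against vehicle gives the drug alone. Of the 10 genes, 0 passed by edgeR or DESeq2, where 0.00589% of all genes tested passed by edgeR and DESeq2 called 425 genes. None of the 10 had an unadjusted p under 0.05 (14.1% of all genes). The largest estimates were those of Trib3, 0.46 ± 0.30 (interval 0.866 to 2.19-fold, adjusted p 0.505), and Ddit3, 0.32 ± 0.15 (0.996 to 1.56-fold, adjusted p 0.357). Ddit3 was the 1 gene of the list whose 3 regorafenib libraries were all above the 3 vehicle libraries, and none was below them in all 3; of all genes 10.6% were separated upward and 10.2% downward.

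Anti-PD1 against vehicle gave estimates at or below 0.08 for all 10 genes, and 9 were negative. None passed by edgeR or DESeq2, where 0% of all genes passed by edgeR and DESeq2 called 3 genes. None of the 10 had an unadjusted p under 0.05 (5.17% of all genes). The list had a median of -0.18 and all genes 0.010. Atf4, Asns and Phgdh were lower in all 3 anti-PD1 libraries than in all 3 vehicle libraries, which held for 9.08% of all genes, and no member was higher in this way, as 7.93% of all genes were. The average anti-PD1 effect, over both backgrounds, had the same median of -0.18, with 9 of 10 negative. In it 0 members passed by edgeR or DESeq2 (0% of all genes by edgeR and 6 genes by DESeq2). Of the 10, 2 had an unadjusted p under 0.05, against 8.75% of all genes. They were Phgdh (-0.24 ± 0.10, adjusted p 0.558) and Psat1 (-0.32 ± 0.14, adjusted p 0.564). These comparisons share their control libraries with those of regorafenib.

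The interaction asks whether the regorafenib effect differed with and without anti-PD1. Of the 10 genes 0 passed by edgeR or DESeq2 (0% of all genes by edgeR) and 0 had an unadjusted p under 0.05 (2.65% of all genes). The estimates ran from -0.22 ± 0.51 for Atf3 to 0.29 ± 0.43 for Trib3. For Ddit3 the interval of the difference was -0.43 to 0.49 on the log2 scale, so differences within that range were not told apart from 0.

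The members were next compared with each other over the 12 libraries, as 45 pairs of log2 CPM values. The correlation r was positive in 37 pairs, with a median of 0.37, and in 34 pairs with a median of 0.33 after the group means were removed. Psat1 and Phgdh were the closest pair (r = 0.95, permutation p = 1e-05, the smallest that 1e+05 permutations can give, adjusted p 0.00045; rho = 0.93, permutation p = 4.0e-05, adjusted p 0.0018), with r = 0.95 without the 2 libraries farthest from the Psat1 median and 0.92 within groups. Atf4 and Trib3 followed (r = 0.83, permutation p = 0.0006, adjusted 0.0108; rho = 0.83, permutation p = 0.00124, adjusted 0.0279; r = 0.79 without the 2 libraries farthest from the Atf4 median and 0.85 within groups). Atf3 and Chac1 had r = 0.82 (permutation p = 0.00072, adjusted 0.0108) and rho = 0.79 (permutation p = 0.00339, adjusted 0.0340), with r = 0.71 without the 2 libraries farthest from the Atf3 median. Those 3 pairs passed by both measures, 4 passed by r and 7 by rho.

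Ddit3 ran against the serine genes. With Psat1 it had r = -0.69 (permutation p = 0.0119, adjusted 0.0763) and rho = -0.80 (permutation p = 0.00243, adjusted 0.0340), and with Phgdh r = -0.65 (permutation p = 0.0239, adjusted 0.0844) and rho = -0.76 (permutation p = 0.00538, adjusted 0.0346). Without the 2 libraries farthest from the Ddit3 median r was -0.70 and -0.59. The pair of Atf4 and Asns, a regulator and its textbook target, had r = 0.62 (permutation p = 0.0332, adjusted 0.0997) and rho = 0.45 (permutation p = 0.140, adjusted 0.349). It had r = 0.17 without the 2 libraries farthest from the Atf4 median, so over the 12 libraries it rests on those. Within groups r was 0.80, which was not computed with libraries left out. In the regorafenib group both genes were highest in regorafenib 1 (Atf4 260 and Asns 171 CPM) and lowest in regorafenib 2 (191 and 82.7 CPM). Libraries of 1 group share a treatment and all values share the scaling of their library.

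**Figure D4:**
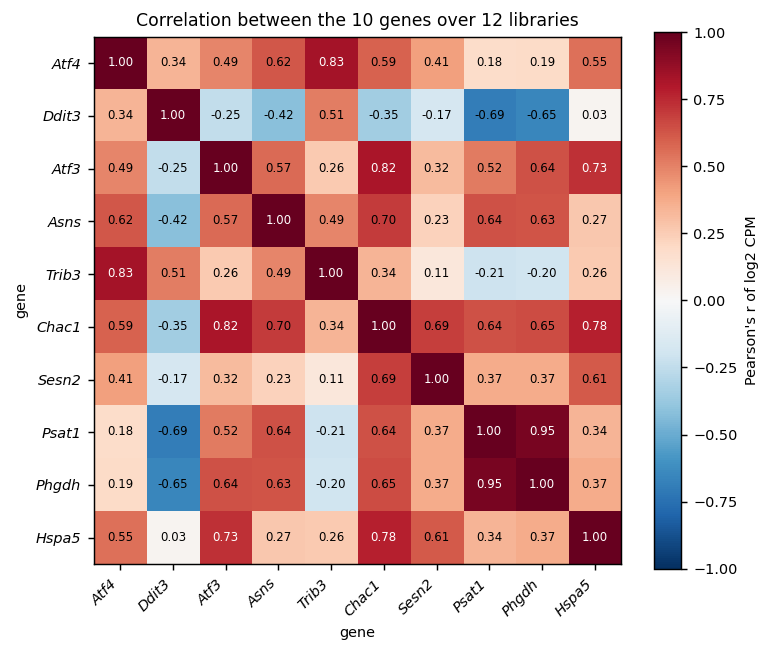
Pearson's r of log2 CPM between each pair of the 10 genes over 12 libraries (both axes list the genes; red positive, blue negative). Psat1 and Phgdh reach 0.95 and Atf4 and Trib3 0.83, while Ddit3 is negative with Psat1 (-0.69) and Phgdh (-0.65).

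The genes most like the list were sought among 11498 others with a mean of at least 5 CPM, by r with the mean of the members' standardised log2 CPM over the 12 libraries, as a description. That mean was 1.54 in regorafenib 1 and -1.18 in anti-PD1 1, against -0.52 to 0.33 in the other libraries. The 6 closest were Grwd1 (0.922), Tnip3 (0.920), Nup62 (0.919), Ctu2 (0.918), Aars (0.914) and Pelp1 (0.913). How far these values of r rest on regorafenib 1 and anti-PD1 1 was not tested. Aars encodes alanyl-tRNA synthetase and belongs to the list of synthetases below. For Atf4 alone the closest were Siah2 (0.921), Rnps1 (0.903) and Mapk6 (0.892).

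Beyond the 10 genes, the wider pathway was followed in lists of its parts. Of 20 cytosolic aminoacyl-tRNA synthetases, 1 rose and 0 fell in the average regorafenib effect (median 0.02, 13 of 20 positive), against 6.16% higher, 3.32% lower, a median of 0.003 and 50.5% positive for all genes. That gene was Cars, cysteinyl-tRNA synthetase, which had 67.7, 73.8 and 70.0 CPM under vehicle, 62.1, 59.0 and 67.4 under anti-PD1, 101, 82.2 and 76.6 under regorafenib alone and 87.8, 83.5 and 90.3 under both agents. All 6 drug-treated libraries were above the 6 others, as they were for 2.87% of all genes. The change was 1.31-fold (0.39 ± 0.07, adjusted p 0.0134), and the call was kept in 12 of 12 fits with a library left out. Aars, by contrast, had 313 CPM in regorafenib 1 and 167 to 218 CPM in the other 11 libraries, with an average effect of 0.11 ± 0.13 (adjusted p 0.616).

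Amino acid transporters, which ATF4 is known to induce, were positive in 9 of 11 cases with a median of 0.14, and 1 rose, against 50.5% positive and 6.16% risen among all genes. Slc7a3, a transporter of cationic amino acids with 10 to 35 counts per library, rose 1.85-fold (0.89 ± 0.23, adjusted p 0.0371) and kept its call in 2 of 12 fits with a library left out, those without regorafenib 2 or regorafenib 3. Slc7a11, the cystine transporter gene, was 79.8 CPM in regorafenib 1 and 32.2 to 53.9 CPM in the others, with an effect of 0.16 ± 0.22 (adjusted p 0.689). Of 13 further enzymes of amino acid, serine and one-carbon metabolism 0 passed by edgeR, 0 had an unadjusted p under 0.05, and the median was 0.01; the smallest p-values were those of Cbs (-0.80 ± 0.40, adjusted p 0.225) and Mthfd1l (0.32 ± 0.20, adjusted p 0.313).

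Of 12 genes for eIF2 alpha kinases, their opposing phosphatase subunits and eIF2B, 0 rose and 2 fell in the average regorafenib effect (median -0.07), where 6.16% of all genes rose and 3.32% fell. Eif2ak1, the heme-regulated kinase, fell by 0.23 ± 0.06 on the log2 scale (adjusted p 0.0418), and its group means were 48.8 ± 2.29 CPM (SD, n = 3) under vehicle, 54.6 ± 0.873 under anti-PD1, 46.3 ± 3.69 under regorafenib alone and 42.2 ± 4.01 under both agents. Eif2b1, a subunit of the exchange factor eIF2B, fell by 0.18 ± 0.05 (adjusted p 0.0379) and by 0.33 ± 0.07 in the combination against vehicle (adjusted p 0.0241). Eif2ak1 kept its call in 2 of 12 fits, those without regorafenib 2 or combination 3. Eif2b1 kept it in 1 of 12, without combination 3; in the combination it kept it in 7 of 12, failing when combination 1, combination 2 or one of the vehicle libraries was left out. Eif2ak2, the double-stranded RNA kinase PKR, had the highest estimate of the list, 0.31 ± 0.10 (adjusted p 0.0719), with 112 ± 3.18 CPM (SD, n = 3) under vehicle, 118 ± 11.1 under anti-PD1, 151 ± 30.5 under regorafenib alone and 134 ± 16.6 under both agents. The kinase genes Eif2ak3 (PERK) and Eif2ak4 (GCN2) had -0.12 ± 0.06 (adjusted p 0.239) and 0.04 ± 0.07 (adjusted p 0.756).

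Of 16 other ATF4 and CHOP targets 0 rose and 1 fell, with a median of -0.11 and 10 of 16 negative, where 6.16% of all genes rose and 3.32% fell. The gene that fell was Jdp2, a repressor of AP-1 sites, with -0.33 ± 0.08 (adjusted p 0.0318) and -0.51 ± 0.11 in the combination against vehicle (adjusted p 0.0318). Its average effect no longer passed when regorafenib 3, combination 1, combination 2, anti-PD1 2, anti-PD1 3 or one of the vehicle libraries was left out, and its combination value when combination 1, combination 2 or one of the vehicle libraries was. Textbook targets in this list such as Ddit4 (-0.27 ± 0.29, adjusted p 0.586), Gdf15 (-0.53 ± 0.32, adjusted p 0.311) and Atf5 (0.14 ± 0.09, adjusted p 0.336) did not pass.

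Lists of other stress responses gave shares of calls near that of all genes (9.49%) or no call. Of 10 p53 targets 1 rose, Mdm2, the p53 ubiquitin ligase (0.36 ± 0.09, adjusted p 0.0394), and of 8 cytosolic heat shock genes 1 fell, Dnajb1, a co-chaperone (-0.24 ± 0.06, adjusted p 0.0318). Of 8 NRF2 targets 0 passed by edgeR (1 at an unadjusted p under 0.05), the closest being Gclm (-0.27 ± 0.08, adjusted p 0.0513) and Txnrd1 (0.19 ± 0.11, adjusted p 0.299). Mdm2 kept its call in 3 of 12 fits with a library left out, without anti-PD1 1, regorafenib 2 or combination 3, and Dnajb1 in 7, failing when combination 2, anti-PD1 2 or one of the vehicle libraries was left out. In the combination against vehicle Mdm2 had 0.55 ± 0.13 (adjusted p 0.0361; kept in 6 of 12 such fits) and Dnajb1 -0.42 ± 0.08 (adjusted p 0.0220; kept in 7).

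**Figure D5:**
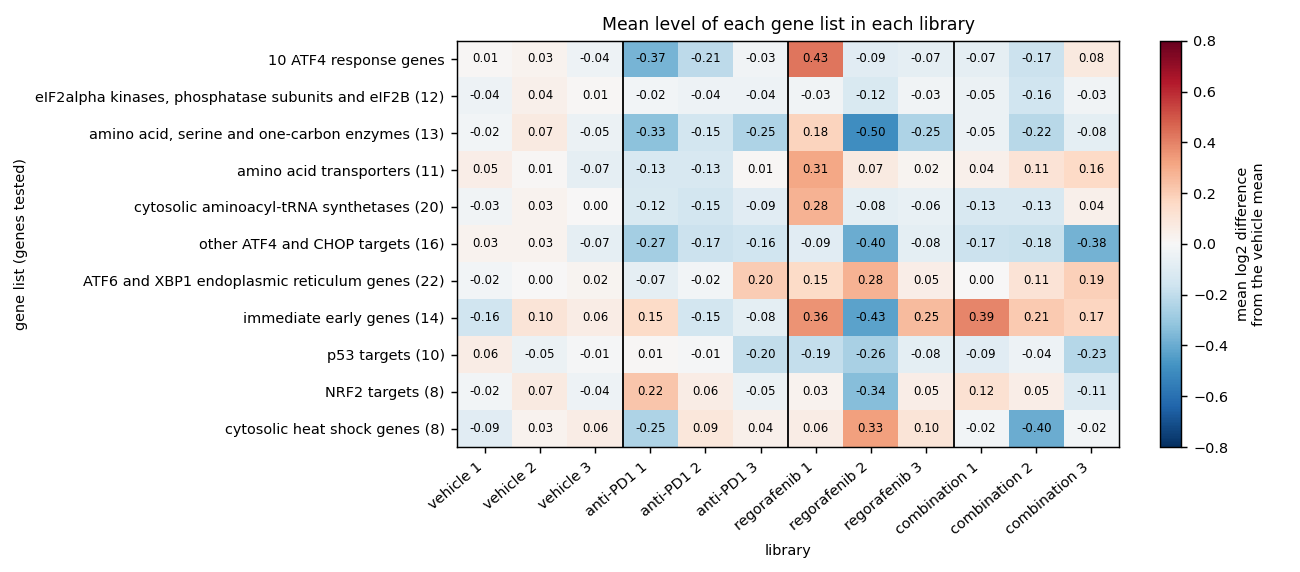
Mean log2 difference from the vehicle mean for the 10 genes and for each related list (rows, with the number of genes tested) in each of the 12 libraries (columns). Regorafenib 1 has 0.43 for the 10 genes, 0.31 for amino acid transporters and 0.28 for synthetases, while the other regorafenib-treated libraries have -0.17 to 0.08 for the 10 genes.

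Library by library, the 10 genes averaged -0.37, -0.21 and -0.03 on the log2 scale against the vehicle mean under anti-PD1, 0.43, -0.09 and -0.07 under regorafenib alone and -0.07, -0.17 and 0.08 under both agents. Regorafenib 1 and combination 3 were above the vehicle range of -0.04 to 0.03. All 10 genes were above their vehicle mean in regorafenib 1, and the synthetase list was also highest there, at 0.28 against -0.15 to 0.04 in the other 8 treated libraries.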

How the data were processed

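RNA of tumours was sequenced in 12 stranded, polyadenylated libraries, 3 per treatment group. The deposited table holds unnormalised counts of reads for each Ensembl identifier. Per the submitters' processing notes, reads were trimmed with cutadapt 2.4 and aligned with STAR 2.7.2a to GRCm38. The counting tool, strand setting and annotation release are not given in the sources used here. GENCODE M21 gave symbols, coordinates and exonic lengths (55227 of 55487 identifiers matched).

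Genes were filtered with filterByExpr (minimum count 10, total 15) and tested with edgeR 4.0.16 (R 4.3.3), quasi-likelihood F test, TMM factors, 1 fit of 4 group means; tests were two-sided with Benjamini-Hochberg adjustment over the 16974 genes. SE and 95% intervals come from that fit. Log2 CPM used a prior count of 2; permutation tests of pairs were two-sided. Alternatives were DESeq2 1.42.0, RLE factors, no filter, replicate block, the 6 libraries compared and each library left out. On simulated data for the average regorafenib effect (16974 genes) 42%, 56%, 78% and 96% of genes changed 1.5, 2, 3 and 5-fold were recovered, with 9 false calls.

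The members, lists and naming rule (all members; from each list up to 6 genes past the threshold in any comparison, or else the 2 of smallest p) were chosen with earlier results of these data known. Eif2ak2, Eif2ak3, Eif2ak4, Itgam, Slc7a11, Aars, Ddit4, Gdf15 and Atf5 were named in addition, after their values were seen.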

Additional observations from a re-analysis of the deposited data

How the results depend on the processing

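The count of genes past the threshold depended on the method. It was 1610 for the average regorafenib effect, with 2808 by DESeq2, 959 with all genes kept and 504 with a replicate block. For the combination against vehicle it was 1246, with 2614, 663 and 11 in the same order and 2068 with only the 6 libraries compared. For regorafenib against vehicle it was 1, with 425 by DESeq2, 6 without a filter, 0 with the block and 0 with only the 6 libraries compared; DESeq2 gave 3 for anti-PD1 against vehicle and 6 for the average anti-PD1 effect, where edgeR gave 0. Leaving out 1 library gave 460 to 2048, 1 to 1517 and 0 to 4 genes in the 3 comparisons. Of the 10 genes, 0 passed in any comparison; DESeq2 called 2 in the average regorafenib effect, and leaving out 1 library gave 0 to 2 there and 0 to 1 in the combination against vehicle. Replicate numbers are not said to link groups: of 18 same-numbered pairs, 2 had deviations correlated above 0.1 (-0.657 to 0.63), 2 of 12 libraries were most like their own number, and the block called 0 members in all 6 comparisons. Of the list genes past the threshold, for which these alternatives were chosen after seeing the data, Cars kept its call with the block (adjusted p 0.0452) and the others did not (0.0666 to 0.0908).

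Among the 10 genes, signs turned for values not past the threshold, mostly when 1 library was left out. In the average regorafenib effect the log2 fold changes ran from -0.11 to 0.31 for Atf3, -0.18 to 0.09 for Asns and -0.03 to 0.37 for Chac1. With regorafenib alone they ran from -0.20 to 0.46 for Atf3, -0.41 to 0.15 for Asns, -0.31 to 0.49 for Chac1 and -0.18 to 0.01 for Phgdh. With anti-PD1 they ran from -0.53 to 0.10 for Atf3 and -0.14 to 0.03 for Hspa5, in the combination from -0.38 to 0.05 for Atf3 and -0.12 to 0.02 for Sesn2, and in the average anti-PD1 effect from 0.00 to 0.15 for Ddit3 and -0.27 to 0.07 for Trib3. The interaction ran from -0.07 to 0.17 for Atf4, -0.17 to 0.13 for Ddit3, -0.49 to 0.18 for Atf3, -0.10 to 0.46 for Asns, -0.06 to 0.64 for Trib3, -0.25 to 0.55 for Chac1, -0.12 to 0.02 for Sesn2, -0.20 to 0.14 for Psat1 (0.00 without a filter) and -0.21 to 0.02 for Hspa5. The cause was not tested. With 3 libraries a group, 42% of genes changed 1.5-fold were recovered in the simulated data of the average regorafenib effect.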
